A study of Schizosaccharomyces pombe with 3 samples.

Results

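The meiotic entry switch of the fission yeast Schizosaccharomyces pombe is represented here by 9 genes: ste11, mei2, mei3, mei4, pat1, rep1, mmi1, rec8 and spo5. Their features were found by gene name, a rule that uses no measured value. They have 17 features on the array: 9 named for the intergenic region (IGR) of a gene and 8 named for an open reading frame (ORF). Of these, 16 are among the 9968 genomic features analysed, and the remaining one, the IGR feature of ste11, bears the suffix Missing and is among 230 such features left out of fits. A feature for the long IGR of mei2 is described apart from the 17. No ORF feature carried the name of mei4. The feature names do not say on which side of a gene the intergenic stretch lies. The series measured where the corepressor Tup12 sits on chromatin. All samples were of Tup12-GFP cells, in mid-log growth in rich YES medium, from which crosslinked and sonicated chromatin was precipitated with a polyclonal antibody to GFP. The immunoprecipitate (IP, labelled with Cy5) and the input DNA (labelled with Cy3) were amplified and hybridised together on each of 3 arrays, which the labels describe as experiments done separately. An untagged strain was not analysed here. The labels name no allele other than the tag, and no mating type.

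Fission yeast cells grow by mitosis in rich medium and enter meiosis only when starved and only as diploids that carry both mating types. Ste11 is the transcription factor that starvation switches on, Mei2 is the RNA-binding protein that starts meiosis, and the kinase Pat1 (older name Ran1) holds both in check in growing cells. Mei3 is a small protein that inhibits Pat1 and is made in starved diploids. Mmi1 destroys meiotic transcripts that arise in growing cells until Mei2 sequesters it. Rep1 is a transcription factor for premeiotic S phase, Mei4 is the forkhead factor of the middle meiotic program, Rec8 is the meiotic cohesin subunit, and Spo5 is an RNA-binding protein needed for meiotic progression and spore formation. Tup12 is a WD-repeat protein of the Tup1 corepressor family that reaches DNA through other, DNA-binding proteins.

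The reference sequence before the transcript start is shown for the 3 genes whose intergenic feature was above the array median in the test. The sources used here give neither the stretch that each spot carries nor the array's genome build, so these are windows of the RefSeq assembly ASM294v3 and not the spotted DNA. Each is the 250 bases before the annotated transcript start, 5′ to 3′ along the gene, with capitals for matches to the motifs described after them. The mei3 window is chrII:719469-719718 on the plus strand, with 28.8% G and C, and it overlaps the long noncoding RNA genes SPNCRNA.324 on the same strand and SPNCRNA.4843 on the other. The mei2 window is chrI:4515026-4515275 on the minus strand, with 36.8% G and C, and it overlaps SPNCRNA.993 and SPNCRNA.4033. The spo5 window is chrII:2535900-2536149 on the plus strand, with 32.8% G and C, and it overlaps SPNCRNA.5702. The median over 5112 protein-coding genes was 32% G and C.

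mei3: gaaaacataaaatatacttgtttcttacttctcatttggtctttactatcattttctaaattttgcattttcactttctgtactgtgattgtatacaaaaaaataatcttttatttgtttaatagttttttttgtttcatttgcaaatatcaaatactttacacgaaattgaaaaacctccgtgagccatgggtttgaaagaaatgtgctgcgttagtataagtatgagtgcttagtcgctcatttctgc
mei2: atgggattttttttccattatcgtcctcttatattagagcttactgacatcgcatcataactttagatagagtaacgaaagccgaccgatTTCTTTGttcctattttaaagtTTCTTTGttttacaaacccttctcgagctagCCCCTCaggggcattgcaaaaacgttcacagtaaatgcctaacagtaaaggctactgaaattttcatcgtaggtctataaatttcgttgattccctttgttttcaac
spo5: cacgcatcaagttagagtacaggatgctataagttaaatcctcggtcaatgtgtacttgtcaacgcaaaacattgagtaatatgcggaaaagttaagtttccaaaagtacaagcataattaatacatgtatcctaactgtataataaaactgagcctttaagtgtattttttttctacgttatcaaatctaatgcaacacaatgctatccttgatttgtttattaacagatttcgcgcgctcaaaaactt

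Motifs of 5 regulators of this pathway were searched on both strands of these windows. The core of the TR box, TTCTTTG, to which Ste11 binds, was found in 3 members, with 2 matches before mei2, 2 before rep1 and 1 before ste11. It occurs in 7.81% of the 5112 windows. The STREP motif of the zinc-finger factor Rst2, CCCCTC, was found before mei2 and ste11, and in 1.7% of windows. The FLEX core of Mei4 and other forkhead factors, GTAAACA, was found before mei4 and rep1, and in 14.8% of windows. Its first match before rep1 shares bases with a TR box core. All 250 bases of the mei4 window overlap the annotated protein-coding gene cdk9, and 157 bases of the rep1 window overlap exg3. ACGCGT, the MCB element of the MBF complex, occurred 2 times before rec8 and in 2.64% of windows. No member held TGACGT, the core of the CRE element of Atf1 (5.52% of windows). The windows of mei3, spo5, pat1 and mmi1 held none of these letters. On the given strand alone, no member window held the FLEX core.

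Of 19944 genomic spots, 63.5%, 67.9% and 63.4% had both channels accepted by the scanner software on replicates 1, 2 and 3. Values are log2 ratios of IP over input, centred on the median of each array, averaged over the 2 spots of a feature and given with the SD over n = 3 arrays. Arrays correlated across features at r = 0.82, 0.84 and 0.73, and repeat spots on an array at r = 0.94, 0.93 and 0.94. Negative-control spots (buffer, empty, bacterial and luciferase) were accepted in the IP channel in 42.1%, 49.7% and 45.2% of cases, against 1.83%, 1.77% and 1.53% in the input channel. IP intensities are therefore also given relative to the median accepted negative control. Where the 3 experiments did not come from separate cultures, p-values measure only the spread between arrays. A ratio averages all cells, so fewer cells with Tup12 at a site and less Tup12 per cell cannot be told apart.

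Of the 17 member features, 9 had a ratio on all 3 arrays, 6 on 1 or 2 arrays, and 2 on none (IGR-ste11Missing and IGR-rec8). Of the 4 intergenic features measured on all 3 arrays, those of mei3, spo5 and mei2 were enriched and that of pat1 was not called. A feature is called enriched or depleted where its mean lies above or below the array median with a limma adjusted p under 0.05. The background is high, since 43.7% of all 2109 intergenic features on 3 arrays were enriched, and 7.35% were depleted against 0 of the 4 members. Of the 5 ORF features on 3 arrays, that of mei3 was enriched, against 8.19% of all 3223 ORF features. Those of rec8 and rep1 were depleted, against 38.8% of ORF features. The median over the members was 1.47 for the 4 intergenic features, against 0.54 for all intergenic features, and -0.67 for the 5 ORF features, against -0.49 for all ORF features. The binding list of the labels takes features whose median percentile rank over up to 6 spots is at least 85. It held the same 4 enriched member features: 3 intergenic ones, against 26.1% of all intergenic features on 3 arrays, and the mei3 ORF, against 3.79% of ORF features. The long IGR feature of mei2, apart from the 17, also reached the limit, with a median rank of 90.6 from 2 spots on 1 array.

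**Figure D1:**
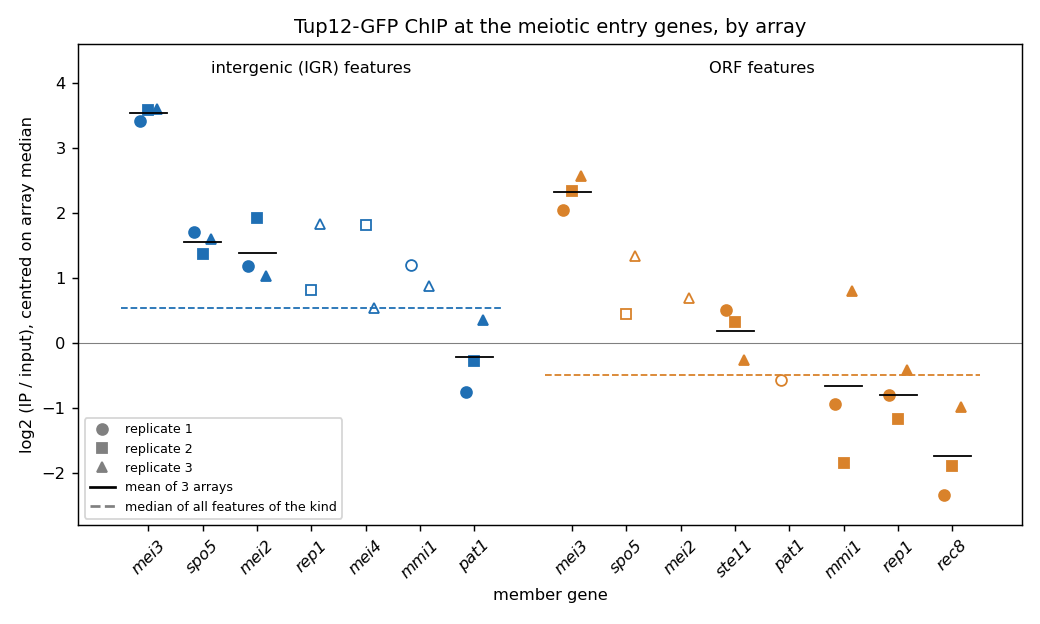
The y axis is the log2 ratio of IP over input, centred on the array median, for each of the 15 member features with a ratio, and the symbols mark the 3 arrays. Filled symbols are features measured on all 3 arrays, with their mean as a bar, open symbols are features measured on fewer, and dashed lines are the medians of all intergenic (0.54) and all ORF (-0.49) features. The intergenic feature of mei3 lies between 3.41 and 3.60, and its ORF feature between 2.04 and 2.57, above every other member.

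The mei3 locus carried the strongest signal of the 9 genes. Its intergenic feature gave log2 ratios of 3.41, 3.59 and 3.60 on replicates 1, 2 and 3, with all 3 arrays close together, and the value on replicate 3 came from 1 accepted spot. The mean was 3.53 ± 0.10, or 11.6-fold over the array median (95% interval 2.97 to 4.09 on the log2 scale, limma adjusted p = 1.0e-10). It stood 19th from the top among 2109 intergenic features. Its median percentile rank was 99.5. The call held under each of the 13 other ways of processing, with means between 2.33 and 5.11. Of these, the median of repeat spots could not differ, since the median of 2 spots is their mean. The value of 2.33 is from the authors' series matrix, which follows the IP channel and is not a ratio.

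The reading frame of mei3, which codes for the Pat1 inhibitor itself, was also high. Its log2 ratios were 2.04, 2.34 and 2.57, so every array lay above every array of every other member ORF feature. The mean was 2.32 ± 0.26, or 4.98-fold over the array median (limma adjusted p = 2.0e-07), 24th from the top of 3223 ORF features. This call also held under all 13 alternatives, with means between 1.55 and 5.02. They include the median of repeat spots and the series matrix, and the 5.02 is the series matrix value.

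Both mei3 features rested on bright IP spots. At the intergenic feature the IP intensity was 5.30, 4.38 and 4.10 times the median negative control, and at least 99.3% of accepted negative controls were dimmer on each array. At the ORF feature the IP was 8.95, 5.88 and 9.52 times that median. Input was low at the intergenic feature, at 0.48, 0.50 and 0.44 of the median input of intergenic features, and near the median at the ORF feature, at 1.14, 0.77 and 1.11 of that of ORF features. The intergenic ratio thus exceeded the ORF ratio while its IP intensity did not.

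Per array, the intergenic feature of mei3 was 1.37, 1.25 and 1.03 log2 units above its ORF feature. The mean difference was 1.22 ± 0.17 (limma adjusted p = 0.014 over 1290 genes with both features). Such a difference was called for 47.6% of these genes, and their median difference was 0.94. With ratios centred within 20 bins of equal input intensity the difference became -0.19 (limma adjusted p = 0.66), and with the authors' series matrix, which follows the IP channel alone, -2.70 (limma adjusted p = 0.065). The call was also lost without replicate 1 (1.14, limma adjusted p = 0.13) and without the filter on flags (1.33, limma adjusted p = 0.069).

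The intergenic feature of mei2 was enriched to a smaller extent. Its log2 ratios were 1.19, 1.93 and 1.02, with replicate 2 highest and all 3 arrays above 1. The mean was 1.38 ± 0.48, or 2.60-fold (limma adjusted p = 2.6e-04), 427th of 2109 intergenic features, with a median rank of 87.6. The IP was 2.62, 4.45 and 1.62 times the median negative control, and 95.6%, 99.4% and 81.4% of accepted negative controls were dimmer. Input was 1.12, 1.58 and 1.04 of the intergenic median. The call was lost without the filter on flags (0.61, limma adjusted p = 0.22). That setting shifted the 5461 features of the reported fit by a median of -0.77. A further spot pair, for the long IGR of mei2, gave 1.37 on replicate 1 and had no accepted input elsewhere. The mei2 ORF had a ratio on replicate 3 alone, 0.68. Its IP was 2.45, 2.14 and 1.06 times the median negative control.

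The intergenic feature of spo5, listed on the array under the older identifier SPBC365.18, gave 1.71, 1.36 and 1.61. All 3 arrays lay above 1, with a mean of 1.56 ± 0.18, or 2.95-fold (limma adjusted p = 4.4e-05), 342nd of 2109, and a median rank of 91.7. Here the IP was near that of negative controls, at 1.41, 0.96 and 0.90 times their median, and the input was low, at 0.42, 0.50 and 0.39 of the intergenic median. The call was lost at equal input (0.27, limma adjusted p = 0.36), in the series matrix (0.50, limma adjusted p = 0.33) and without the filter on flags (0.79, limma adjusted p = 0.090). The part of low input in this ratio was not otherwise tested. The spo5 ORF gave 0.45 and 1.34 on replicates 2 and 3, with IP at 0.64 of the median negative control on both.

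**Figure D2:**
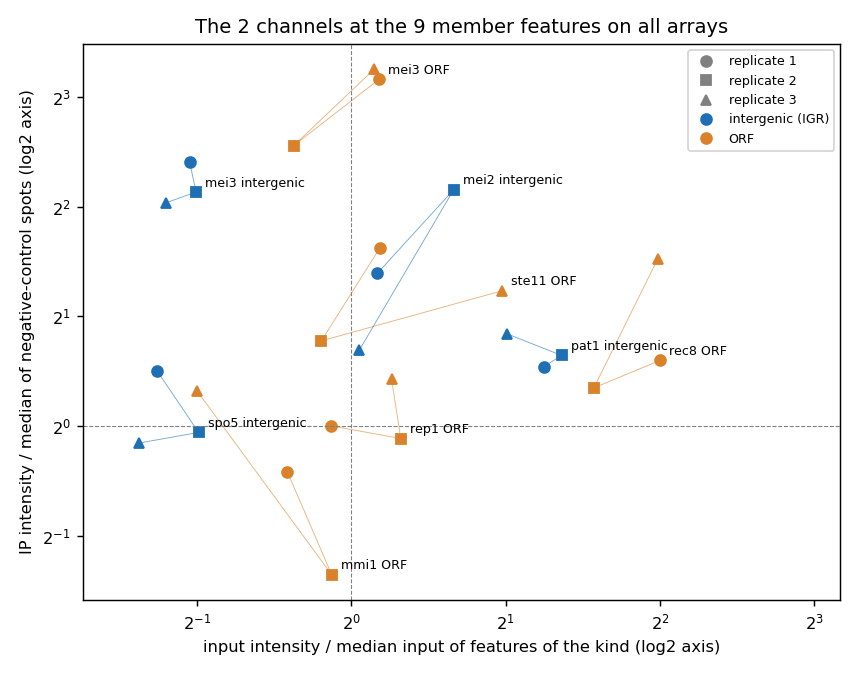
For the 9 member features measured on all 3 arrays, the y axis is the IP intensity over the median of accepted negative-control spots and the x axis is the input intensity over the median of features of the same kind, both on log2 axes. Lines join the 3 arrays of a feature. The mei3 ORF lies highest (5.88 to 9.52 times the negative controls), the mei3 intergenic feature lies at 4.10 to 5.30 times, with mei2 at 4.45 on replicate 2, spo5 lies near the negative controls at low input, and the rec8 ORF has the highest input (2.97 to 4.0 times the ORF median).

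At pat1, the kinase gene that Mei3 opposes, no enrichment was called. Its intergenic feature, listed under the older name ran1, gave -0.75, -0.28 and 0.36, so the arrays lay on both sides of the median (mean -0.22 ± 0.56, 95% interval -0.81 to 0.36, limma adjusted p = 0.54). On replicate 3 the repeat spots disagreed at -0.57 and 1.28, and 1 of them carried the flag S. With only spots flagged C the mean was -0.53 (limma adjusted p = 0.11). The IP was 1.46, 1.56 and 1.79 times the median negative control and input was high, at 2.38, 2.57 and 2.02 of the intergenic median. The pat1 ORF had a ratio on replicate 1 alone, -0.57, with IP at 2.59 times the median negative control.

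For ste11, the master regulator upstream of mei2, the intergenic region could not be read. The feature bears the suffix Missing in its name, no spot had accepted input on any array, and its IP was 2.19, 0.74 and 1.73 times the median negative control. The ste11 ORF gave 0.50, 0.32 and -0.27, with 2 arrays above and 1 below the median (0.18 ± 0.40, limma adjusted p = 0.61). Its IP was 3.08, 1.71 and 2.35 times the negative-control median. Input was 1.14, 0.87 and 1.97 of the ORF median, and at equal input the mean was 0.75 (limma adjusted p = 0.014). Among ORF features it lay at percentile 80.4.

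The intergenic features of mei4, rep1 and mmi1 had ratios on 2 arrays each and lay above the array median on both. That of mei4 gave 1.82 and 0.53 on replicates 2 and 3, and that of rep1 0.82 and 1.83 on the same arrays. That of mmi1, listed as SPCC736.12c, gave 1.21 and 0.87 on replicates 1 and 3. The rep1 value on replicate 3 and the mmi1 value on replicate 1 each came from 1 accepted spot. When features with 2 arrays were admitted to the fit, all 3 were enriched, at 1.18 for mei4 (limma adjusted p = 0.023), 1.32 for rep1 (limma adjusted p = 0.0098) and 1.04 for mmi1 (limma adjusted p = 0.022), against 41.3% of the 3004 intergenic features in that fit. Their IP intensities on these arrays were 0.61 to 1.33 times the median negative control, and their input was 0.32 to 0.88 of the intergenic median. On these arrays 11.2% to 67.8% of accepted negative controls were dimmer.

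The ORF features of rec8 and rep1 lay below the array median. That of rec8 gave -2.34, -1.90 and -0.99, all 3 arrays low and replicate 3 least so, with a mean of -1.74 ± 0.69 (limma adjusted p = 2.6e-05), 3083rd of 3223 ORF features. The value on replicate 1 came from 1 accepted spot. On replicate 2 the repeat spots differed by 0.92 log2 units, beyond the 95th percentile of such differences on that array (0.87). The input of the rec8 ORF was the highest of the members at 4.0, 2.97 and 3.96 of the ORF median, while its IP was 1.51, 1.27 and 2.87 times the median negative control. At equal input the mean was -0.67 (limma adjusted p = 0.048), and in the series matrix -0.22 (limma adjusted p = 0.86). The intergenic feature of rec8 had accepted IP spots, at 1.85, 2.97 and 1.32 times the median negative control, but no accepted input, so it has no ratio. Without the filter on flags, rejected spots were kept and intensities below a floor were raised to it. There the intergenic feature of rec8 was called enriched at 1.75, 3.08 and 1.73 (2.19 ± 0.77, limma adjusted p = 0.017). All input spots behind these values had been rejected. In the binding list of that setting, the intergenic feature of rec8 and the ORFs of mei2 and pat1 were added. The mei2 ORF gave 2.15 and 2.61 there on replicates 1 and 2, where its input was rejected, and -0.19 on replicate 3. The pat1 ORF gave 2.51 and 2.22 on replicates 2 and 3, where its input was rejected, and -1.31 on replicate 1. The intergenic features of mei2 and spo5 and the mei3 ORF dropped out of that list, and the mei3 intergenic feature stayed.

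The rep1 ORF gave -0.80, -1.17 and -0.41, with a mean of -0.79 ± 0.38 (limma adjusted p = 0.021), 2163rd of 3223 ORF features. The call was lost when arrays were centred on ORF features (-0.37, limma adjusted p = 0.33), which raised the median of all tested features by 0.43. It was also lost at equal input (-0.19, limma adjusted p = 0.55), under loess (-0.56, limma adjusted p = 0.14), without replicate 1 (-0.79, limma adjusted p = 0.17) and without replicate 2 (-0.61, limma adjusted p = 0.072). Its IP was 1.00, 0.92 and 1.35 times the median negative control, and its repeat spots differed by 1.14 and 0.84 log2 units on replicates 2 and 3, beyond the 95th percentile of such differences on those arrays (0.87 and 0.69).

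For 3 members, the intergenic and ORF features could be compared on 2 arrays. That of rep1 was 1.99 and 2.24 log2 units above its ORF feature (2.12, limma adjusted p = 0.012 over 2136 genes, of which 41.2% had such a difference called). The rep1 intergenic value on replicate 3 came from 1 accepted spot, and the ORF repeat spots differed by 1.14 and 0.84 log2 units on these arrays. The rep1 difference was not examined at equal input. The difference was 2.15 and 0.08 for mmi1 (1.12, limma adjusted p = 0.18). For spo5 it was 0.91 and 0.27 (0.59, limma adjusted p = 0.29). Neither of these was called.

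The ORF of mmi1 gave the widest spread of the members. Its values were -0.94 and -1.85 on replicates 1 and 2 but 0.79 on replicate 3, and the repeat spots of each array lay on the same side of 0. The mean of -0.67 ± 1.34 was not called (limma adjusted p = 0.11). Without replicate 3 the mean was -1.40 (limma adjusted p = 0.0011). After a further subtraction of the listed background it was -2.27 (limma adjusted p = 0.031). The IP was 0.75, 0.39 and 1.25 times the median negative control.

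**Figure D3:**
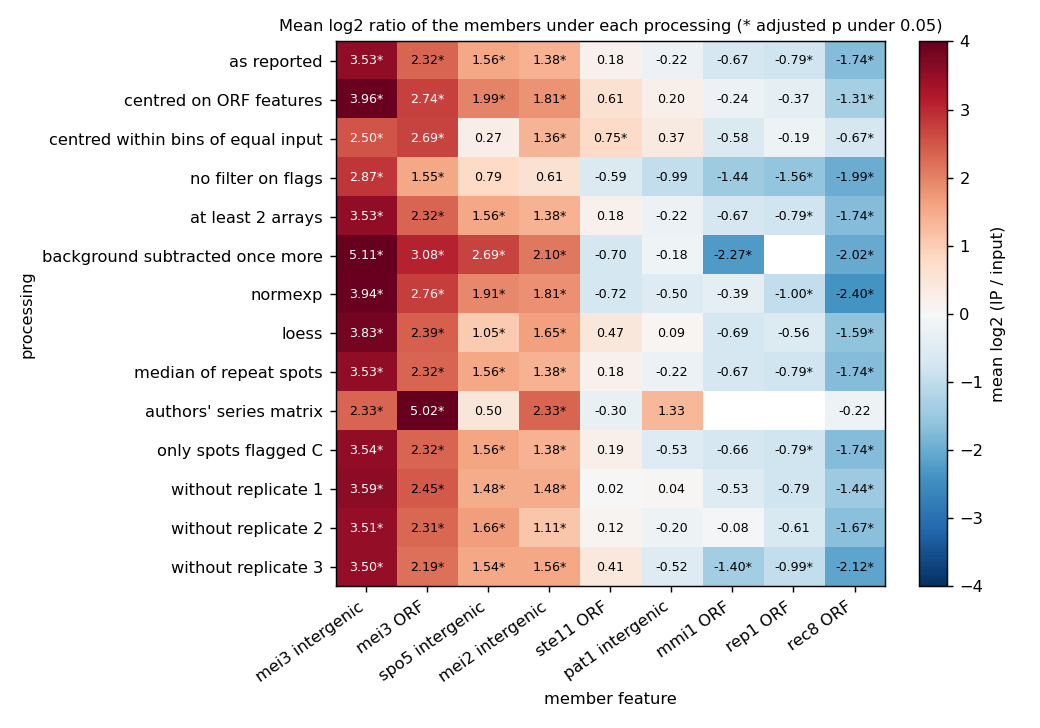
Each cell is the mean log2 ratio of a member feature on the arrays used (columns) under a way of processing (rows), with an asterisk where the limma adjusted p was under 0.05 and blank cells where no value on enough arrays was left. The series matrix row holds values of the IP channel and not ratios. Both mei3 features keep a positive, called value in every row (2.33 to 5.11 and 1.55 to 5.02), whereas the spo5 feature falls to 0.27 at equal input.

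The intergenic features whose 3 array values lay nearest to those of a member were listed by Euclidean distance. For the intergenic feature of mei3 they were those of SPBC887.17, wwm3, mug153, thf1 and psk1, at distances of 0.06 to 0.38 log2 units and with means of 3.35 to 3.71. For the mei3 ORF they were B13958-3, rpl13a-1, SPBPJ4664.02, sst1 and eis1. For mei2 they were SPBC18H10.21c, rpn501, gas2, hmt1 and SPAC1705.02. For spo5 they were sur2, atf21, an intergenic region named for an alanine tRNA, fft2 and dri1. None of these 20 features is named for another member, but only 4 of the 2109 intergenic features searched belong to members. Their absence therefore says little about likeness between members.

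The signal at mei3 was higher than at the measured features of the genes on either side. In the reference annotation mei3 lies on chromosome II in tandem with cmt1, with 1039 bases between the coding regions. For cmt1, the intergenic feature gave 1.35, 1.83 and 1.86 (1.68 ± 0.29, limma adjusted p = 2.0e-05), and the ORF gave 0.71, 1.26 and 0.72 (0.90 ± 0.32, limma adjusted p = 0.0092). Next to cmt1, the intergenic feature of ubc4, a ubiquitin-conjugating enzyme gene, gave 1.09 ± 0.09 (limma adjusted p = 0.0018). On the other side, the ORF of lsb1 gave 0.39, 0.44 and 0.44 (0.42 ± 0.03, limma adjusted p = 0.20). The ORF of vps15, 3 genes away, gave -0.88 ± 0.35 (limma adjusted p = 0.011). On each array no feature with a ratio, of the 3 genes on either side, reached the value of the mei3 intergenic or ORF feature. Downstream, the intergenic features of sco1 and vps15 had no ratio on any array. That of lsb1 had a ratio on replicate 2 alone (0.82), so intergenic values on that side are mostly unknown. Differences between neighbouring genes were not tested.

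Around mei2, an intergenic feature on each side was enriched as well, as were 43.7% of all intergenic features. In the annotation mei2 shares its upstream region with the divergent gene omt2, with 4249 bases between the coding regions. For omt2 the intergenic feature had no ratio and the ORF gave 0.49, -0.84 and -0.24 (limma adjusted p = 0.60). Downstream, the intergenic feature of grp1 gave 1.41, 2.17 and 1.61 (1.73 ± 0.40, limma adjusted p = 1.6e-05). Upstream and 2 genes away, that of apc14, which codes for a subunit of the anaphase-promoting complex, gave 0.68, 1.48 and 0.72 (0.96 ± 0.45, limma adjusted p = 0.0064).

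Values on the 2 sides of pat1 differed in size, a difference that was not tested. The divergent gene ubp11 gave 0.19 ± 0.35 at its intergenic feature and -0.13 ± 0.56 at its ORF, neither called, like pat1 itself. Beyond pat1, mug124 gave 2.01 ± 0.30 at its intergenic feature (limma adjusted p = 1.8e-06) and 1.83 ± 0.29 at its ORF (limma adjusted p = 6.4e-06). At fba1, the gene of the glycolytic enzyme aldolase, the intergenic feature gave 2.41 ± 0.19 (limma adjusted p = 8.7e-08).

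**Figure D4:**
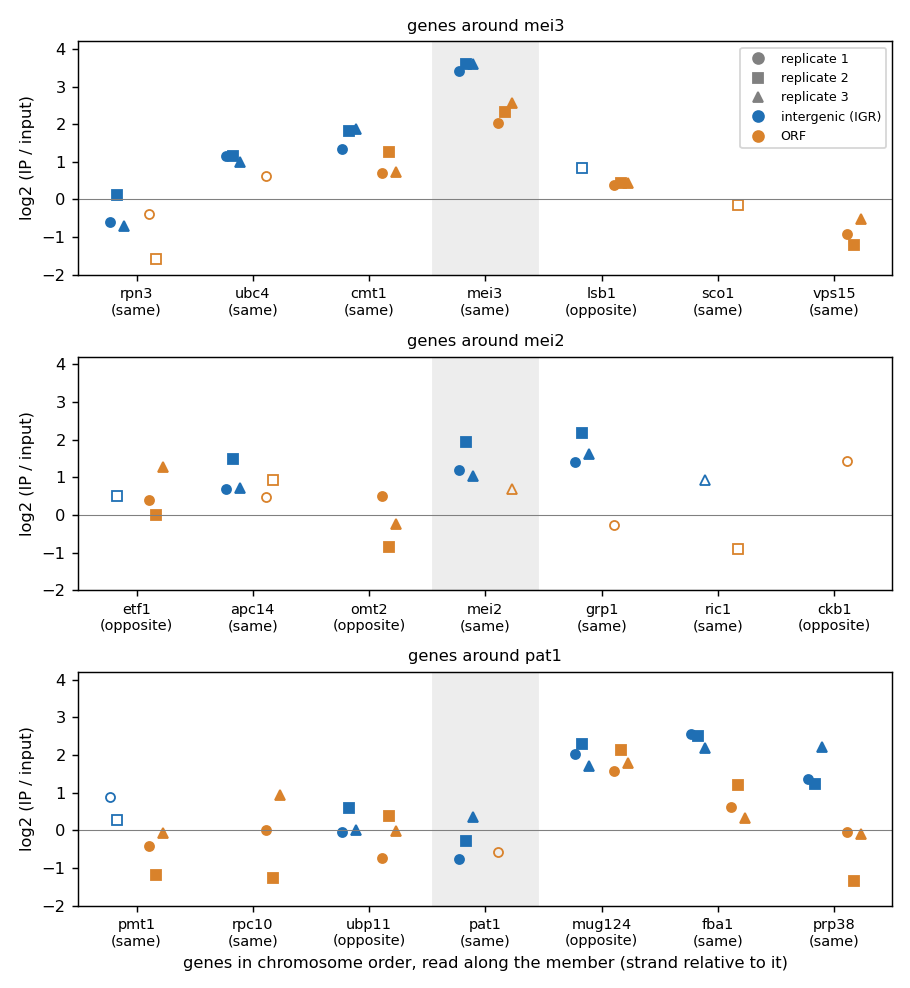
The y axis is the log2 ratio of IP over input on each array for the intergenic and ORF features of the 3 genes on either side of mei3, mei2 and pat1, in chromosome order along the member. Open symbols are features measured on fewer than 3 arrays, and the shaded column is the member. Values around mei3 peak at its own intergenic feature (3.41 to 3.60), the region of mei2 has similar values at grp1 (1.41 to 2.17), and values next to pat1 are high at mug124 and fba1.

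Neighbours of the other members varied from locus to locus. Beside mei4, the intergenic feature of the tandem upstream gene cdk9 gave -0.17 ± 0.29 and that of the actin gene act1 1.56 ± 0.28 (limma adjusted p = 4.7e-05). Beside ste11, the intergenic feature of cyc3 gave 0.92 ± 0.32 (limma adjusted p = 0.0077), whereas the long IGR feature of cyc3 gave -1.16 ± 0.27 (limma adjusted p = 0.0011). The annotated gap between the coding regions of cyc3 and ste11 is 7611 bases. Beside spo5, the ORFs of ccr1 and pcf1 gave -0.12 ± 0.16 and -0.45 ± 0.53, neither called. The intergenic feature of ccr1 gave 1.29 and 0.19 on replicates 1 and 3, and that of pcf1 gave 0.77 on replicate 1. Further from spo5, 3 genes upstream, that of alp4 was enriched at 1.27 ± 0.33 (limma adjusted p = 5.1e-04). Beside rec8, the ORF of atp7 was depleted at -1.52 ± 0.46 (limma adjusted p = 8.4e-05), while that of orc1 gave -0.18 ± 0.20. Beside mmi1, the ORF of ago1, the Argonaute gene, was depleted at -1.89 ± 0.12 (limma adjusted p = 3.7e-06). Beside rep1, the exg3 ORF gave -0.10 ± 0.39 and the mmp1 ORF was enriched at 0.85 ± 0.29 (limma adjusted p = 0.013).

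The wider pathway was read through 7 lists with 77 genes in all, none of them members, and each list is set beside the background shares given for the members. Over all lists, 8 of 26 intergenic features on 3 arrays were enriched and 0 depleted, against 43.7% and 7.35% of all intergenic features. Of 47 ORF features, 5 were enriched and 17 depleted, against 8.19% and 38.8% of all ORF features. The medians of the listed intergenic and ORF features were 0.41 and -0.42, against 0.54 and -0.49 for all. The same shares are the background of each list below, where counts rest on few features. No list had an intergenic feature as high as that of mei3.

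Upstream of the switch, 2 of 8 intergenic features of activators and repressors of Ste11 were enriched (43.7% of all intergenic features). The highest was that of sty1, the stress MAP kinase gene, at 1.83, 2.58 and 1.79 (2.07 ± 0.44, limma adjusted p = 1.5e-06). The lowest was that of nrd1, an RNA-binding repressor of Ste11 target genes, at -0.45 ± 0.29 (limma adjusted p = 0.19). Of 10 ORFs in that list, 2 were depleted, gad8 (-1.64 ± 0.52) and pka1 (-0.74 ± 0.41). None of the 4 intergenic features of the mating MAP kinase pathway and other Ste11 targets was called, from 0.58 ± 0.78 at mam2, the receptor gene for P-factor, to -0.27 ± 0.21 at the MAP kinase gene spk1. Of 6 ORFs in that list, 4 were depleted (38.8% of all ORF features), including map1 (-1.76 ± 0.46), map3 (-1.63 ± 0.32) and ste4 (-1.55 ± 0.80).

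Among partners of Mmi1 in RNA elimination, 1 of 3 intergenic features was enriched, that of rmn1 (0.67 ± 0.38, limma adjusted p = 0.049), and that of iss10 was lowest at -0.57 ± 0.35. Of 5 ORFs, pab2 was enriched (1.04 ± 0.50, limma adjusted p = 0.0036), and red5 (-1.92 ± 0.64) and pir2 (-0.79 ± 0.25) were depleted. Of 5 intergenic features of genes whose transcripts Mmi1 eliminates, 3 were enriched (43.7% of all intergenic features). The 5 ranged from dic1 at 1.58 ± 0.48 (limma adjusted p = 5.6e-05) down to tht2 at -0.56 ± 0.22, which was not called. The ssm4 ORF, which codes for a dynactin subunit, gave 1.85, 2.64 and 2.59 (2.36 ± 0.44, limma adjusted p = 2.0e-07), close to the mei3 ORF. In the same list, 3 of 5 ORFs were depleted (38.8% of all ORF features), mug10 (-0.99 ± 0.63), meu6 (-0.94 ± 0.14) and rec10 (-0.72 ± 0.26).

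Among targets of Mei4, 1 of 4 intergenic features was enriched, that of meu10 at 2.41, 1.53 and 2.28 (2.07 ± 0.47, limma adjusted p = 1.5e-06), and the lowest was that of mfr1 (-0.64 ± 0.62). Of 9 ORFs, 2 were enriched and 3 depleted (8.19% and 38.8% of all ORF features), with meu10 at 1.91 ± 0.46, mde3 at -2.07 ± 0.62 and mde2 at -1.31 ± 0.40. Of the cohesin and recombination genes that work beside Rec8, the 1 intergenic feature on 3 arrays, that of rec10, was not called (0.46 ± 0.08, limma adjusted p = 0.16), and 1 of 5 ORFs was depleted, that of rec10. Of the partners of Rep1 and MBF genes, 1 of 2 intergenic features was enriched, that of the ribonucleotide reductase gene cdc22 at 2.15, 2.56 and 2.20 (2.31 ± 0.23, limma adjusted p = 2.0e-07), and that of rep2 gave 0.48 ± 0.26. Of 8 ORFs, 3 were depleted, yox1 (-1.51 ± 0.23), cdc10 (-1.47 ± 0.67) and nrm1 (-1.47 ± 1.09), and 1 was enriched, cig2 (1.34 ± 1.03), which is named here after its value was seen.

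**Figure D5:**
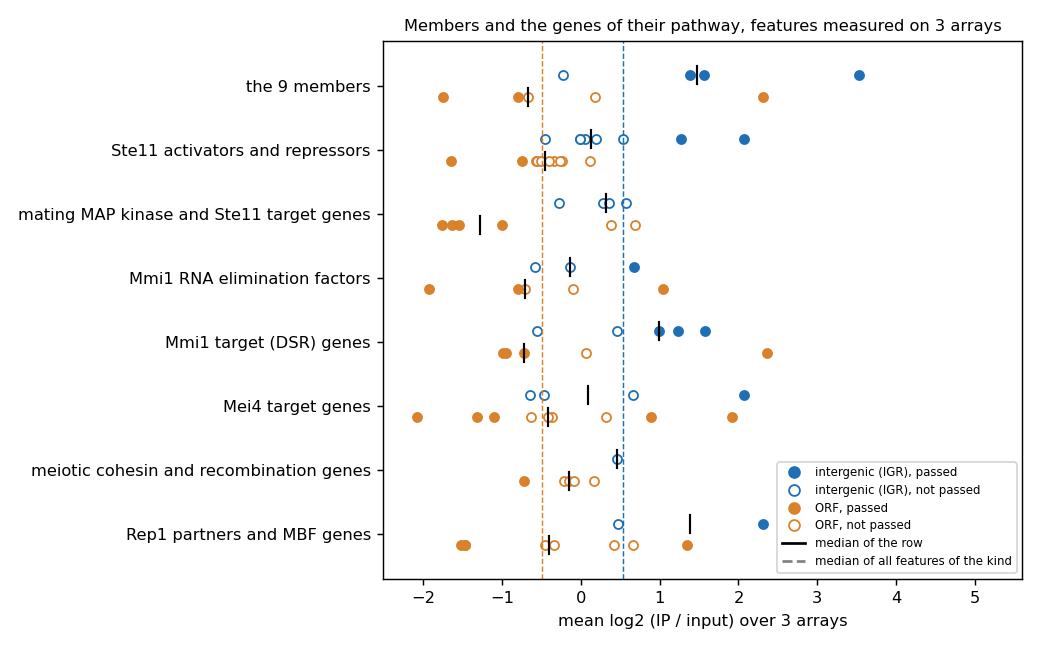
Each point is the mean log2 ratio over 3 arrays of an intergenic or ORF feature of the members (top row) or of a pathway list, filled where the limma adjusted p was under 0.05. Black ticks are row medians and dashed lines the medians of all intergenic (0.54) and ORF (-0.49) features. The mei3 intergenic feature (3.53) is the highest point, and the ssm4 (2.36) and mei3 (2.32) ORFs are the highest ORF points.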

How the data were processed

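Tup12-GFP chromatin was hybridised on 3 two-colour arrays of a single group. The authors deposited spot intensities per channel from TIGR Spotfinder, per the labels' protocols, without normalization between channels. A series matrix by the authors gives log10 values that, per the labels, GeneSpring had scaled to the 50th percentile. Set against the spots these followed the IP channel (r = 0.86, 0.81 and 0.81 with its background-subtracted log10) and not the ratio, with 25.2% to 37.6% of spots at a floor, so they served as an alternative. Scale and centring beyond this stay unknown.

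Spots flagged X in either channel were left out, and log2 of Cy5 over Cy3 was centred on array medians (0.52, -0.29 and 0.24 before centring). Direction follows the labels, which call this dye assignment the general one, and no array has swapped dyes. The 5461 features measured on each of the 3 arrays were tested with limma 3.58.1 in R 4.3.3 (lmFit, eBayes, mean against 0, two-sided, Benjamini-Hochberg over all of them): 1209 were enriched and 1425 depleted. Names were matched to ASM294v3 (9510 of 9968 features), and 230 features named Missing were left out of fits. The fit was tested on simulated data. Members, gene lists and tests were chosen with earlier results of these data known. Named were all members, their neighbours, the 5 nearest intergenic features, and of each list the highest and lowest intergenic feature and up to 3 called ORFs furthest from 0. The number of arrays limits the precision. Alternatives were other centrings, background corrections, flag filters, array minimums, percentile limits and left-out arrays.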

Additional observations from a re-analysis of the deposited data

How the results depend on the processing

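The arrays form a single group, so groups could not be compared. Ratios and differences between features were formed within each array. Over all features, 1911 were enriched and 677 depleted when centred on ORF features. At equal input 595 were depleted, after a further background subtraction 404, under loess 911 and in the series matrix 53. Leaving out an array gave 962 to 1371 enriched and 846 to 1348 depleted. Of the member features, 7 were enriched when 2 arrays sufficed, and 4 to 6 when an array was left out. Depleted members numbered 1 when centred on ORF features, at equal input and under loess, 0 in the series matrix, and 1 to 3 when an array was left out. The mei3 difference between intergenic and ORF feature was -0.19 at equal input (limma adjusted p = 0.66) and -2.70 in the series matrix (limma adjusted p = 0.065), neither called. It was 1.33 without the flag filter (limma adjusted p = 0.069), and 1.14 to 1.31 when an array was left out. On the given strand 0 members held the FLEX core. The binding list held 3 to 6 member features under its alternatives; IGR-mei3 was in it under each, and the mei3 ORF in all but the list without the flag filter. The cause was not tested. Median shifts were taken over features also tested in the reported fit. Those over 0.1 in size came with centring on ORF features (0.43), equal input (0.25), loess (0.18), the series matrix (0.38) and no flag filter (-0.77). After the further background subtraction the rep1 ORF had no value, nor had the rep1 and mmi1 ORFs in the series matrix. The use of spots flagged C alone was chosen after seeing the data and ended no member's call.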
